A study of Mus musculus with 10 samples.

Results

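The genes described here are 62 mouse genes, named as beta-defensins or listed as genes of the epididymal epithelium. They were taken from 20807 protein-coding genes on chromosomes 1 to 19 in the GENCODE M21 annotation. The rule that defines them uses gene names and no measured value, so the expression of each in the epididymis was not checked. All 42 beta-defensin genes with a Defb number were taken, together with 20 genes of secreted or surface proteins of the epididymal epithelium. These 20 were Gpx5, Gpx6, Crisp1, Crisp4, Adam7, Bsph1, Cst8, Cst11, Cst12, Lcn2, Lcn5, Lcn6, Lcn8, Lcn9, Lcn10, Lcn12, Rnase9, Rnase10, Spink11 and Ros1. Each gene body was extended by 10 kb on both sides and overlapping stretches were merged, which gave 31 windows covering 1461 kb of GRCm38 (mm10). Of these, 17 windows held beta-defensin genes and 14 held the other genes.

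The epididymis is the duct in which sperm mature after they leave the testis. Its epithelial cells secrete proteins that coat the sperm, including beta-defensins (small antimicrobial peptides), lipocalins (carriers of small lipophilic molecules), cystatins (protease inhibitors) and glutathione peroxidases, and many of their genes respond to androgen. Ros1 is a receptor tyrosine kinase needed for differentiation of the initial segment. Sperm themselves carry DNA packed mostly by protamines and transcribe little or nothing, so a peak at one of these genes in sperm is a measure of DNA access and not of expression.

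Sperm chromatin accessibility was measured by ATAC-seq, in which a transposase cuts DNA that is not tightly packed. Mature sperm came from the cauda epididymis of wild-type C57BL/6JRccHsd males that received a chow diet (F0 CD, 6 mice) or a Western diet rich in fat and sugar (F0 WD, 4 mice) for 6 months from 4 weeks of age, with 1 library per mouse. These numbers of mice follow the titles, whereas the protocol in the labels gives them the other way round. The deposited lists held 13366 to 29532 peaks per library, with F0 CD replicate 2 the longest, and the weakest summits that passed held 9 to 13 reads, so that a missing peak shows only that fewer reads were stacked there. The lists gave no firm check of cell type, because 8 of 11 spermatid and sperm marker genes had a peak within 10 kb in some library, but none of the 11 had a peak within 3 kb of a start site in at least 2 libraries, and Tnp1, Tnp2 and Prm3 had none in their windows. The same promoter count was 2 of 7 for epithelial markers, 0 of 7 for immune markers and 2 of 3 for early germ cell markers, against 19.6% of all genes. The epithelial ones were Cldn3 and Krt19, each seen in 3 F0 CD libraries but in none of F0 WD. In the windows none of the 7 epithelial markers differed by diet (smallest exact permutation p = 0.238). Krt8 and Epcam had the higher mean peak count in F0 WD and the others in F0 CD. By qPCR on sperm RNA, the study reported no detectable C-kit or E-cadherin, its markers of testicular germ cells and of epithelial cells. The part of other cells in the results that follow was not tested.

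Recurrent accessibility at these genes was limited to a few places. Across the 10 libraries 126 peaks fell in the windows, and they merged into 76 regions, of which 60 (78.9%) had a peak in a single library. The share over all autosomal regions was 78.3%. The other 16 recurred in 2 or more libraries and are called consensus regions. Their reference sequences around the strongest summit are shown for several of them, so that the repeats in them can be seen. All are written from the plus strand of GRCm38 and span 121 bases.

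The region with a peak in all 10 libraries lay at chr2:25646678-25646942 between genes, 6312 bp from the start of Lcn8, a lipocalin of the epididymal lumen. In its sequence from chr2:25646748-25646868 the capitals mark the 16 bases that hold the summits of all 10 libraries.
Lcn8 region: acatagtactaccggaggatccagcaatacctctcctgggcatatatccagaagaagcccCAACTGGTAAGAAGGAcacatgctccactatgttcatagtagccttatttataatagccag

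Other recurrent regions lay in the beta-defensin clusters of chromosomes 8 and 2. Of these, 4 are shown with CA or TG runs of at least 4 units in capitals. The sequences come from chr8:19244464-19244584 near Defb5, chr2:152462495-152462615 in an intron of Defb23, chr2:152516668-152516788 near Defb28 and chr8:19450142-19450262 near Defb8.
Defb5 region: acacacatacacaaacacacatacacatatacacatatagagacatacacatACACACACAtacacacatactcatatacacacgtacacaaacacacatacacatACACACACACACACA
Defb23 region: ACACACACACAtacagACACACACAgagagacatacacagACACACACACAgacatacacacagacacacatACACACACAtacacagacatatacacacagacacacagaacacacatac
Defb28 region: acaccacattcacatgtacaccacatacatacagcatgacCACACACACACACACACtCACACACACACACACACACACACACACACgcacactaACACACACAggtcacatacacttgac
Defb8 region: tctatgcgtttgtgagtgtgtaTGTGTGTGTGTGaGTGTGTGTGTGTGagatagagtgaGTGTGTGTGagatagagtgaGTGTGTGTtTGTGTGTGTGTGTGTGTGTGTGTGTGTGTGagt

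A pair of regions in introns of neighbouring beta-defensin genes is shown because the sequences resemble each other. They come from chr8:21840726-21840846 in Defb2 and chr8:21859767-21859887 in Defb10, with capitals as before.
Defb2 region: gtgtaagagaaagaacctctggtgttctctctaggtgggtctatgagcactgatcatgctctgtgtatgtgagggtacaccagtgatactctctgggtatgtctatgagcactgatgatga
Defb10 region: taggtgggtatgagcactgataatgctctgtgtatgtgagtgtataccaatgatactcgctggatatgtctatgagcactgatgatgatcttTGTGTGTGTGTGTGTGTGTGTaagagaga

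Both regions at Gpx5 are shown because they were found in different diets, and the region at Defb45 because it is the consensus region nearest to a start site. The Gpx5 regions had peaks in only 2 libraries each. Since 2 libraries cannot give a Fisher's exact p below 0.133, their detection alone cannot decide whether they differ by diet. Read counts at these regions, which the study's differential test uses, were not compared here. The sequences come from chr13:21293264-21293384 and chr13:21295529-21295649 on the side of Gpx5 and from chr2:152596549-152596669 next to a start site of Defb45, with capitals as before, of which the second and the third sequence have none.
Gpx5 near region: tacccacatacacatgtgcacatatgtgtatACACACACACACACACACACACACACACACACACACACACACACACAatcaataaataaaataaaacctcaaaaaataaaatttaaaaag
Gpx5 far region: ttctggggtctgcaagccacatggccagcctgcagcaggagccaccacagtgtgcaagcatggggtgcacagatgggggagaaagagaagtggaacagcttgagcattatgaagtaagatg
Defb45 region: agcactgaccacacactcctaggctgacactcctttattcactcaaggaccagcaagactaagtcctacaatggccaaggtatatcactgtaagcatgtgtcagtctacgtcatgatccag

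The number of peaks in the windows did not differ between the diets beyond the spread between mice. The F0 CD libraries held 8, 23, 13, 10, 10 and 14 peaks (13.0 ± 5.37, SD, n = 6) and the F0 WD libraries held 14, 10, 16 and 8 (12.0 ± 3.65, SD, n = 4). The ranges overlapped almost fully, and the highest value belonged to the library with the longest list. The difference of -1.0 peaks per library (F0 WD minus F0 CD) gave p = 0.914 in an exact two-sided permutation test over all 210 arrangements of the diet labels, whose smallest possible p is 0.00952. As a share of the autosomal peaks of each list, the windows held 0.0685 ± 0.00709% in F0 CD and 0.0705 ± 0.0112% in F0 WD (SD, n = 6 and 4, exact permutation p = 0.686).

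The beta-defensin windows held 7, 13, 9, 7, 6 and 9 peaks in F0 CD and 8, 8, 14 and 6 in F0 WD. The means were 8.5 ± 2.51 and 9.0 ± 3.46 (SD, n = 6 and 4), and the exact permutation p was 0.914. The windows of the other epididymal genes held 1, 10, 4, 3, 4 and 5 peaks in F0 CD and 6, 2, 2 and 2 in F0 WD. Here the means were 4.5 ± 3.02 and 3.0 ± 2.0 (SD, n = 6 and 4, exact permutation p = 0.524), and 3 of 4 F0 WD libraries lay below 5 of 6 F0 CD libraries.

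**Figure D1:**
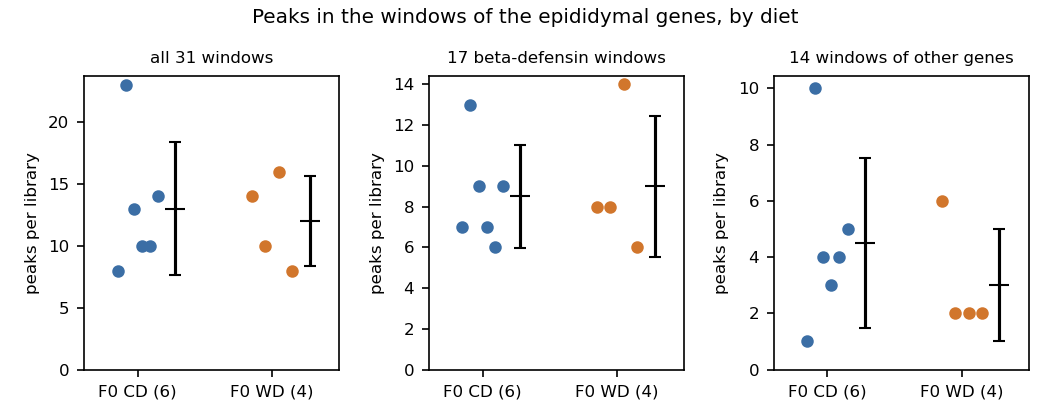
Peaks per library in all windows, in the beta-defensin windows and in the windows of the other epididymal genes, for the 6 F0 CD and the 4 F0 WD libraries; points are libraries, the bar is the mean with its SD. The groups overlap in each panel, with 8 to 23 peaks in F0 CD and 8 to 16 in F0 WD over all windows.

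Peaks were unevenly spread over the windows. The window of the cluster from Defb23 to Defb29 on chromosome 2, with 6 beta-defensin genes over 101 kb, held the most peaks, 21 over the 10 libraries. It held 1, 4, 3, 3, 2 and 1 peaks in F0 CD and 1, 3, 3 and 0 in F0 WD. The window of Lcn8, Lcn5, Lcn6 and Lcn10 held 13, that of Defb3 held 12, that of Defb6, Defb46 and Defb5 held 10 and that of Defb21, Defb19, Defb45, Defb36 and Defb25 held 8. Per length, Defb3 stood highest with 54.7 peaks per Mb per library, followed by the lipocalin window (24.5), Defb8 (22.9), Defb6 to Defb5 (22.1) and Defb23 to Defb29 (20.8).

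The opposite end comprised 9 windows with no peak in any library, 6 of the other genes and 3 of beta-defensins. These were the windows of Rnase9, Adam7 (a sperm surface protein of the metalloprotease family), Crisp1 (a secreted protein that binds the sperm head), Spink11, Lcn9, Bsph1, Defb7, Defb33 and of Defb40 with Defb37. A further 4 windows had peaks in 1 library only. Rnase10, with 2 peaks, owed both to F0 CD replicate 2, and Lcn12, Defb1 and the pair of Defb14 and Defb4 had 1 peak each.

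**Figure D2:**
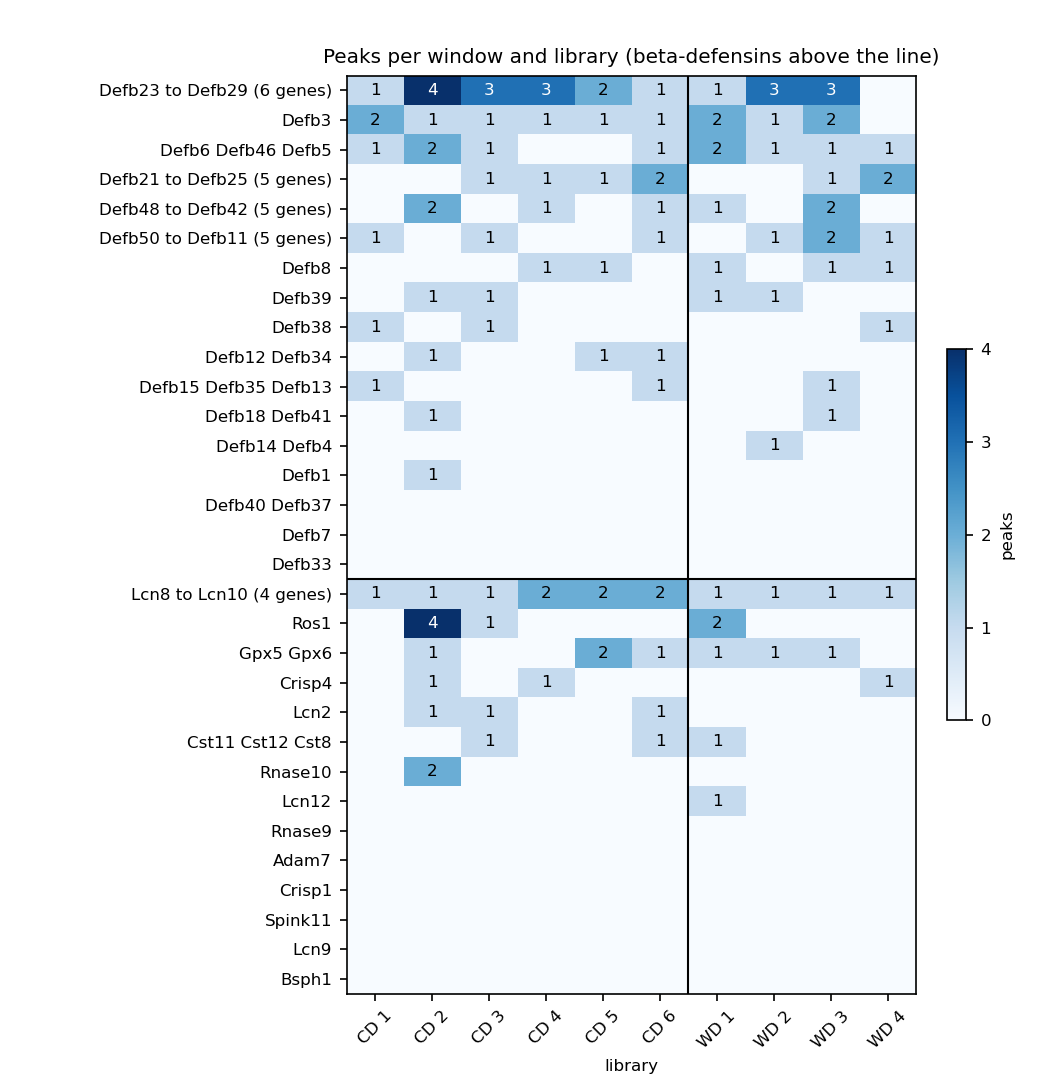
Number of peaks in each of the 31 windows (rows, beta-defensins above the line) in each library (columns, F0 CD left of the line and F0 WD right of it); colour and digits give the count. The window from Defb23 to Defb29 holds 21 peaks in all, the lipocalin window has a peak in all 10 libraries, and 9 windows are empty.

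Gene by gene, 50 of the 62 members (80.6%) had a peak in their own window in at least 1 library, against 82.1% of all autosomal protein-coding genes, whose windows were longer (median 37.6 kb against 23.5 kb). The median density was 7.33 peaks per Mb per library for the members and 5.79 for all genes. A comparison between diets was made for the 33 members with a peak in at least 2 libraries. None of the 33 had an exact permutation p under 0.05, but with so few peaks only 11 of them could have reached it in any arrangement of the libraries. Over all 13154 genes tested, 0.281% were called with more peaks in F0 WD and 0.54% with more in F0 CD, and no gene passed after Benjamini-Hochberg adjustment, where the smallest adjusted p was 1.0.

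The smallest p among the members was that of Defb10, with 0.167 peaks per F0 CD library and 0.75 per F0 WD library (exact permutation p = 0.238). Defb5 had 0.667 and 1.25 (exact permutation p = 0.333), and Lcn2, an iron-scavenging lipocalin of innate defence, had 0.5 and 0.0 (exact permutation p = 0.333). Neighbouring members share peaks where their windows overlap, so these are not independent genes. The 3 peaks in the Lcn2 window lay at different places, each in a single F0 CD library. The places were 1996 bp from the start of Lcn2, in a UTR of 1110008P14Rik and in an exon of Ptges2. Ros1, which has the longest window (170.0 kb), had 7 peaks, of which 4 belonged to F0 CD replicate 2.

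Within 3 kb of an annotated start site, here called the promoter, 25 members (40.3%) had a peak in some library and 9 (14.5%) in at least 2. The corresponding shares of all genes were 43.3% and 19.6%. The 9 were Defb23 with 7 libraries, Defb28 with 5, Gpx5 and Defb8 with 4, Defb5, Defb10 and Defb45 with 3, and Defb2 and Defb3 with 2. Apart from Gpx5, the secreted glutathione peroxidase of the caput, each of them is a beta-defensin gene. They were 8 of the 42 beta-defensin genes (19.0%, near the 19.6% of all genes) and 1 of the 20 other genes (5.0%). The libraries had a peak at 5, 7, 4, 5, 5 and 4 member promoters in F0 CD and at 6, 4, 5 and 4 in F0 WD. The means were 5.0 ± 1.1 and 4.75 ± 0.957 (SD, n = 6 and 4, exact permutation p = 0.962).

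None of these 9 promoters was detected more often in one diet at Fisher's exact p under 0.05 (two-sided), which Defb2 and Defb3, with 2 libraries each, could not have reached. The lowest was that of Defb8, detected in 1 of 6 F0 CD and 3 of 4 F0 WD libraries (Fisher's exact p = 0.19). Of all 4077 promoters tested, 0.687% were called towards F0 WD and 0.442% towards F0 CD.

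At Gpx5 the 4 libraries with a promoter peak had it at 2 places. The region at chr13:21292934-21293429, whose sequence has a long CA run, had peaks in F0 CD replicates 5 and 6 and in no F0 WD library, with summits 295 to 675 bp from the start. The region at chr13:21295370-21295728, without such a run, had peaks in F0 WD replicates 1 and 2 and in no F0 CD library, with summits 2737 and 2858 bp from the start of Gpx5 and nearer to another gene, Gm11270 (1129 bp). Fisher's exact p was 0.467 for the first and 0.133 for the second, the lowest of the 16 consensus regions and the lowest that 2 libraries allow. These summits held 12 to 19 reads and stood at a fold enrichment of 3.22 to 4.65, where the weakest peaks of the lists held 9 to 13 reads.

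The consensus regions were then compared between diets one by one. None of the 16 reached a two-sided Fisher's exact p under 0.05, nor did any under the mid-p version, where the smallest p was 0.0667. For 11 of the 16 this was fixed by their number of libraries, since regions found in 2, 8, 9 or 10 libraries cannot go below a Fisher's exact p of 0.133, so only 5 regions were open to a call. Over all 24763 consensus regions 0.553% were called towards F0 WD and 0.468% towards F0 CD, and none passed after adjustment. The region near Defb8, at chr8:19449826-19450508 and 2596 bp from the start, was found in 1 of 6 F0 CD and 3 of 4 F0 WD libraries (Fisher's exact p = 0.19). It passed the unadjusted threshold when F0 CD replicate 5 or F0 WD replicate 2 was left out (Fisher's exact p = 0.0476 each, adjusted p = 1.0).

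**Figure D3:**
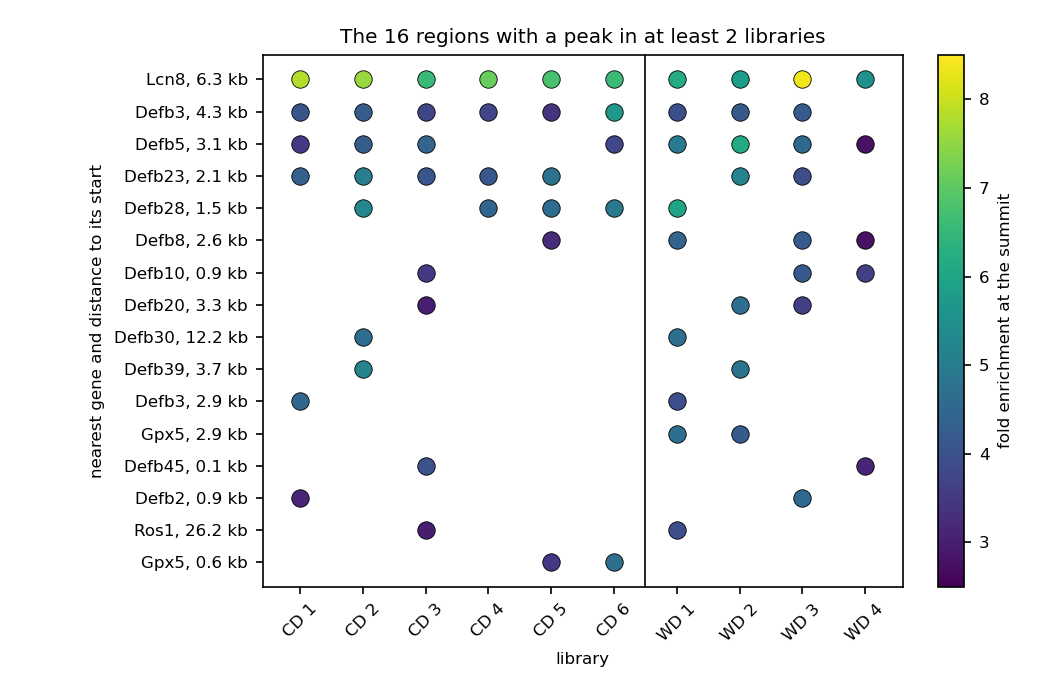
Detection of the 16 consensus regions (rows, named by the nearest member and the distance to its start) in each library (columns); a point is a peak and its colour the fold enrichment at the summit. The region near Lcn8 has a point in all 10 columns and fold values of 5.51 to 8.38, and the other regions have peaks in fewer libraries, at 2.76 to 6.11.

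The Lcn8 region held the highest fold value at these genes, although in F0 WD replicate 2 the Defb5 region stood higher (6.11 against 5.82). Its fold enrichment was 7.81, 7.57, 6.55, 7.14, 6.75 and 6.57 in the F0 CD libraries and 6.2, 5.82, 8.38 and 5.51 in the F0 WD libraries. F0 WD held both the highest and the 3 lowest values. The means were 7.06 ± 0.533 and 6.48 ± 1.3 (SD, n = 6 and 4, exact permutation p = 0.343). The summits held 21 to 39 reads, with means of 32.5 and 25.8 that are not scaled for depth (exact permutation p = 0.0762). It ranked between the top 1.12% and the top 8.39% of each list, with means of 1.7% in F0 CD and 3.78% in F0 WD (exact permutation p = 0.133), whereas the median member peak ranked at 46.5%. Of all autosomal consensus regions, 2.08% had a peak in all libraries.

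All 265 bases of the Lcn8 region are marked as repeat in the reference. Its 50 bases at the strongest summit, the length of a read, occur 2742 times in the placed chromosomes with no mismatch, and a search with blastn found 39580 copies of the region with at least 90% identity over at least 80% of its length. Of the 33558 copies on autosomes, 95 (0.283%) overlapped a peak of any library, 23 a peak in at least 2 libraries, and 1, the Lcn8 region itself, a peak in all 10. For the other consensus regions the 50 bases at the summit were found once, apart from the Gpx5 region with the CA run, where they were found in 2 places. The part that reads from such copies play in the peak was not tested.

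The larger of the regions near Defb3 was next, with a peak in 6 of 6 F0 CD and 3 of 4 F0 WD libraries and fold values of 3.39 to 5.68. The Defb5 region (chr8:19244113-19244690, 3056 bp from the start) had a peak in 4 of 6 and 4 of 4 libraries, at 2.76 to 6.11. The Defb23 region (chr2:152462386-152462814, in an intron) had one in 5 of 6 and 2 of 4, at 3.91 to 5.14. Fisher's exact p was 0.4, 0.467 and 0.5 for these 3 regions, and all of them were found in libraries of both diets.

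The Defb28 region (chr2:152516544-152517066, 1527 bp from the start) had peaks in 4 of 6 F0 CD and 1 of 4 F0 WD libraries, and those near Defb10 (chr8:21859702-21860214) and Defb20 (chr2:152480033-152480431) in 1 of 6 and 2 of 4. The remaining 8 regions had a peak in 2 libraries each. Of these, the regions near Defb30, Defb39, Defb2 and Defb45, the smaller Defb3 region (chr8:19290340-19290595) and a region in an exon of Ros1 (chr10:52168644-52168899) had 1 peak in each diet, and the last 2 were those of Gpx5. The region near Defb30 lies 12154 bp from that gene and overlaps an exon of another gene, Gm19198. The Defb45 region covers a start site and part of the UTR of a Defb45 transcript, with summits 127 bp away in F0 CD replicate 3 and 55 bp away in F0 WD replicate 4.

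Dinucleotide repeats were common in the consensus regions, and some regions of chromosome 8 resembled one another. A CA or TG run of at least 10 units was held by 10 of the 16 (62.5%), not including the most recurrent ones near Lcn8 and Defb3, against 47.0% of all 24550 autosomal consensus regions, and the median share of repeat-masked bases was 59.1% against 69.9%. With 300 bp added on each side, the Defb2 and Defb10 regions aligned with 77.1% identity over 619 bases. The Defb8 region aligned to the smaller Defb3 region in the opposite orientation, with 74.7% identity over 494 bases. The larger Defb3 region aligned to the Defb5 region with 78.9% identity over 888 bases. It also aligned to the Defb8 region in the opposite orientation (82.8% over 262 bases) and to the smaller Defb3 region (86.5% over 260 bases). Beta-defensin genes of this chromosome are known to have arisen by repeated duplication. Apart from the larger Defb3 region, the aligned regions also hold CA or TG runs of at least 10 units. These had 14 and 11 units at Defb2 and Defb10, 23 and 30 at Defb8 and the smaller Defb3 region, and 22 at Defb5. In the larger Defb3 region the longest run had 6 units. The source of the likeness was not tested, and regions that resemble one another are not independent examples.

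**Figure D4:**
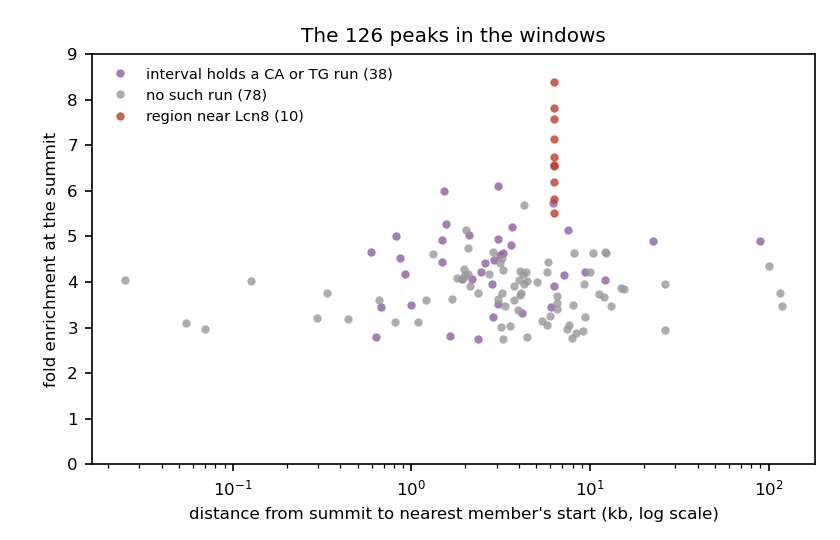
Fold enrichment at the summit against the distance to the nearest member's start (log scale) for the 126 peaks in the windows, coloured by whether the interval holds a CA or TG run of at least 10 units. Apart from the Lcn8 region, at 5.51 to 8.38, peaks stayed at or below 6.11 at any distance, and 16 of the 126 lay within 1 kb of a start.

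The density of peaks was compared with that of all protein-coding windows within each library. Over the 31 windows it was 8.63 ± 3.12 peaks per Mb against 8.13 ± 2.07 (SD, n = 10 libraries), a mean log2 ratio of 0.05 (higher in 6 of 10 libraries, exact sign-flip permutation p = 0.434). Without the long Ros1 window the ratio was 0.16 (exact sign-flip permutation p = 0.00586), and with 20 kb added to the gene bodies it was -0.04 (exact sign-flip permutation p = 0.631). When the families were taken apart, a division added after these values were seen, they went in opposite directions. The beta-defensin windows had 11.0 ± 3.48 peaks per Mb, a mean log2 ratio of 0.41 ± 0.24 (SD, n = 10), higher in 10 of 10 libraries with an exact sign-flip permutation p of 0.00195, the smallest that 10 libraries allow. The windows of the other epididymal genes had 5.83 ± 3.95, a mean log2 ratio of -0.73 ± 0.74, higher in 2 of 10 libraries (exact sign-flip permutation p = 0.0117).

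This test covers the spread between mice and not the choice of genes, and the same few regions recur in the libraries. Without the Defb3 window the log2 ratio of the beta-defensins was 0.23 (exact sign-flip permutation p = 0.0176), and it was also 0.23 when peaks with a CA or TG run of at least 10 units were left out on both sides (exact sign-flip permutation p = 0.0234). Without Ros1 the other genes stood at -0.48 (exact sign-flip permutation p = 0.0312). Runs of that length were present at 114.0 per Mb in the beta-defensin windows, 83.6 in the windows of the other genes and 109.0 in all protein-coding windows. A run lay in 32 of 87 beta-defensin peaks (36.8%), in 6 of 39 peaks of the other genes (15.4%) and in 28.3% of peaks in protein-coding windows.

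**Figure D5:**
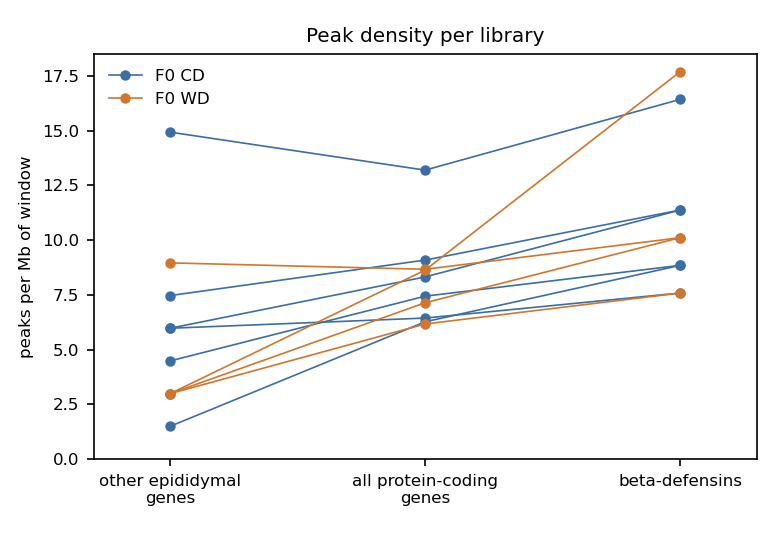
Peaks per Mb of window in each library for the other epididymal genes, all protein-coding genes and the beta-defensins; each line is 1 library, coloured by diet. All 10 lines end higher at the beta-defensins than at the protein-coding genes, with means of 11.0 and 8.13 peaks per Mb, and diets are interleaved.

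The promoters of these genes were also searched for the letters AGAACA on both strands, the hexamer that a single androgen receptor molecule recognises. RefSeq promoter sequences of GRCm38.p6, from 250 bases before to 50 after the start, were matched for 45 of the 62 members, with 47 promoters. The hexamer was present in 28 of the 47 (59.6%), in 60.0% of the beta-defensin and 58.8% of the other promoters, against 19.0% of all 32851 promoters and 28.4% of those at least as rich in A and T as the median member promoter. The full element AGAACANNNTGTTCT was in none of the 47 and in 3 of all promoters. Around the summits, in 200 bp, the hexamer was in 2 of the 16 consensus regions (12.5%) and in 7.54% of all autosomal consensus regions. These matches describe the letters only.

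A list of 44 further genes of the epididymis was drawn up for comparison. A peak lay in the window of 36 of them (81.8%), at a median of 5.09 peaks per Mb per library, and at the promoter of 10 in at least 2 libraries. Of the 24 tested, 1 was called in each direction at an unadjusted exact permutation p under 0.05. Over all 13154 genes tested, 0.281% were called with more peaks in F0 WD and 0.54% with more in F0 CD. The called genes are named because their values were seen. Cst3, a widely expressed cystatin, had 1.33 peaks per F0 CD library and 0.25 per F0 WD library, and Adam28 had 0.167 and 1.0 (exact permutation p = 0.0476 each, adjusted p = 1.0).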

How the data were processed

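Sperm ATAC-seq peaks of 6 F0 CD and 4 F0 WD mice were analysed. Per the methods, the authors used Trim Galore 0.6.10 for trimming, Bowtie2 2.4.5 for alignment to mm10 and Picard 2.24.0 for duplicates. Bowtie2 was set to report up to 20 alignments per read pair. Alignments of quality under 5 were dropped, fragments between 50 and 115 bp retained, and MACS2 2.2.7.1 run on each library at q 0.05. The deposited lists give a score, a fold enrichment (a ratio to local background) and −log10 p and q values, but not the read numbers that the study's differential test needs, so that test was not run.

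Distinct intervals were counted in the windows at an overlap of at least 1 bp. Reads at a summit were solved from fold and p, within 0.001 of the −log10 p. Group values were compared by exact permutation, detection by Fisher's exact test and density by sign-flip permutation within library, and p-values cover the spread between mice. Sequence searches used blastn 2.17.0 and the GRCm38 reference. The sequence of 1 of the recurrent regions is not reported here. The tests were checked on simulated data with strong changes and, for changed genes, more peaks than the members had. Their power at the few peaks of the members was not checked. Python 3.11.15 was used.

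Members, lists and tests were chosen with earlier results of these data known. Named were members with a promoter peak in at least 2 libraries, called members and regions, the 5 windows with most peaks and with the highest density, empty windows, and the most recurrent regions. Cst3, Adam28 and the comparisons at Lcn2 and Defb5 were named after their values were seen.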

Additional observations from a re-analysis of the deposited data

Results flagged for a closer look

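Values far from the rest of their group were looked for in 9 measures and both diets, 18 groups in all, by Dixon's ratio of gap to range. Its limits are set so that chance gives about 1 in 20 for continuous values. That rate does not hold for small counts with ties, as in both groups named here. The windows of the other epididymal genes held 6 peaks in F0 WD replicate 1 and 2 in each of the other 3 F0 WD libraries. F0 CD replicate 2, which has the longest list, had a peak at 7 member promoters, against 4 or 5 in the other F0 CD libraries.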

How the results depend on the processing

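With each library left out in turn (leave-one-out), the difference in peaks (F0 WD minus F0 CD) ranged from -2.33 to 1.0 over all windows, from -1.17 to 1.5 for the beta-defensins and from -2.5 to -0.4 for the other genes, the difference in share from -0.00291 to 0.00544 percentage points and that in promoters from -0.667 to 0.15, none with an exact p under 0.05. The sign turned for all windows when F0 CD replicate 2 (1.0) or replicate 4 of F0 WD (0.333) was left out, without F0 WD replicate 3 for the share (-0.00291) and for the beta-defensins (-1.17), and without F0 CD replicate 2 for promoters (0.15). Called consensus regions ranged from 0 to 1, the 1 being the Defb8 region, and the log2 density ratio from 0.0131 to 0.073.

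With the same number of best peaks from every list the difference was 0.917 peaks over all windows and 0.417 promoters. The log2 density ratio was -0.0409 with 20 kb added to gene bodies and 0.163 without the Ros1 window (exact sign-flip permutation p = 0.00586). Alternatives added after seeing the data gave 0.414 for the beta-defensin windows alone, 0.229 for these without the Defb3 window, 0.229 for them without peaks holding a run, -0.727 for the other genes and -0.48 for these without Ros1. The cause was not tested.

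With libraries of the same number as a replicate block (4 pairs, smallest possible p 0.125), the difference was -1.5 peaks over all windows (exact sign-flip permutation p = 0.875), and no call changed. Same-numbered libraries did not deviate together (correlations of -0.0109 to 0.0356). No member was called under any setting. Depth limits all of this: 9 to 13 reads were needed for a peak.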
